A study of Mus musculus with 20 samples.

Results

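Broad domains of H3K4me1 in double-positive thymocytes were taken as the peaks of the H3K4me1 list that were 4000 bp wide or more. The domains were thus chosen by H3K4me1 width alone. The rule took 1237 of 74607 H3K4me1 peaks, or 1.66%. H3K4me1, monomethylation of lysine 4 of histone H3, is a mark of active and poised enhancers, and it also flanks active start sites, where the nucleosomes nearest the start carry H3K4me3. Most H3K4me1 peaks are short and lie around a single regulatory site, whereas long stretches of the mark are found where several regulatory sites lie close together and around genes with high activity in a cell type. In the thymus the double-positive stage is the one at which the genes of the T-cell receptor alpha chain are rearranged and cells are selected.

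The cells came from the thymus of C57BL/6 mice and were at the CD4+/CD8+ stage, enriched with magnetic beads for CD8 and then for CD4. The protocols for FAIRE and RNA give the age of the mice as 5 to 6 weeks, and the labels name a single strain and stage and no treatment. Chromatin immunoprecipitation and sequencing (ChIP-seq) covered 15 targets, and FAIRE, which recovers nucleosome-poor DNA, was the 16th list. Each target had 1 peak list, so the spread between animals is not known and no p-value was computed.

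The other 15 lists cover successive roles at regulatory DNA. CBP is a histone acetyltransferase recruited to enhancers and promoters, and ETS1 is a DNA-binding factor of the T lineage. TBP binds the core promoter and Taf1 is a subunit of the same complex, TFIID. TFIIA and TFIIB stabilise TBP on DNA, and TFIIB joins it to RNA polymerase II (Pol II). TFIIF enters with the polymerase, and TFIIE and TFIIH complete the preinitiation complex. Pol II is phosphorylated on serine 5 of its C-terminal repeats (Ser5P) at initiation and on serine 2 (Ser2P) during elongation. H3K4me3 marks active start sites and H3K36me3 marks transcribed gene bodies.

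The broad domains covered 7.07 Mb. They made up 10.2% of the H3K4me1 length and 14.4% of the summed H3K4me1 area, the area being the authors' signal summed over a peak. Their widths ranged from 4000 to 28910 bp, with a median of 5100 bp, quartiles of 4450 and 6330 bp and a 90th percentile of 7820 bp. There were 646 domains of 5000 bp or more, 371 of 6000 bp or more, 112 of 8000 bp or more, 44 of 10000 bp or more and 2 of 20000 bp or more. The H3K4me1 peaks under 4000 bp numbered 73370, covered 62.4 Mb and had a median width of 630 bp. Among these, the 5363 peaks of 2000 bp or more, termed mid-width here, served as a nearer comparison. The threshold cut through a continuous range of widths, with 9 peaks lying 10 bp and 8 lying 20 bp below it, and with 4 at 4000 bp and 7 that were 10 bp wider. Width was also tied to height. The median area per bp was 160.5 in broad domains (quartiles 144 and 178) and 88.0 in all peaks under 4000 bp (quartiles 72.4 and 113). In mid-width peaks the lower quartile was 119, above the upper quartile of all shorter peaks. The width rule used the H3K4me1 list, so these values and those on clustering are descriptions.

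Every broad domain lay on an autosome. The X chromosome held 1322 H3K4me1 peaks and none of 4000 bp or more, which allows a share of up to 0.227% (3 counts of the total), against 1.69% on the autosomes. The widest X peak was 3420 bp. The deficit on X began at smaller widths, since 2.34% of X peaks (95% Wilson interval 1.66 to 3.31) and 8.96% of autosomal peaks (8.76 to 9.17) reached 2000 bp. H3K4me1 peaks on X were also lower, with a median area per bp of 76.3 against 89.0, and whether the lower signal accounts for the missing width was not tested. All Wilson and ratio intervals in the text cover counting error only. They are also too narrow, because peaks of neighbouring sites are not independent. Among autosomes the broad share ran from 11.1 per 1000 H3K4me1 peaks on chromosome 19 to 22.9 on chromosome 2, with 135 domains on chromosome 2.

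The domains lay close to one another. Another broad domain was found within 10 kb, edge to edge, for 402 of the 1237 (32.5%, 29.9 to 35.2). For the next 1237 H3K4me1 peaks in width (3080 bp or more) the share with a neighbour of their own set was 17.3% (15.3 to 19.5). The plot of neighbours by gap shows the broad domains above that set at every gap from 0.5 to 50 kb. The median gap from a broad domain to the next was 41.5 kb, against 125 kb in the set next in width. Small H3K4me1 peaks crowded around the domains too, and the nearest H3K4me1 peak of any width was a median of 80 bp away, against 300 bp for peaks under 4000 bp.

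**Figure D1:**
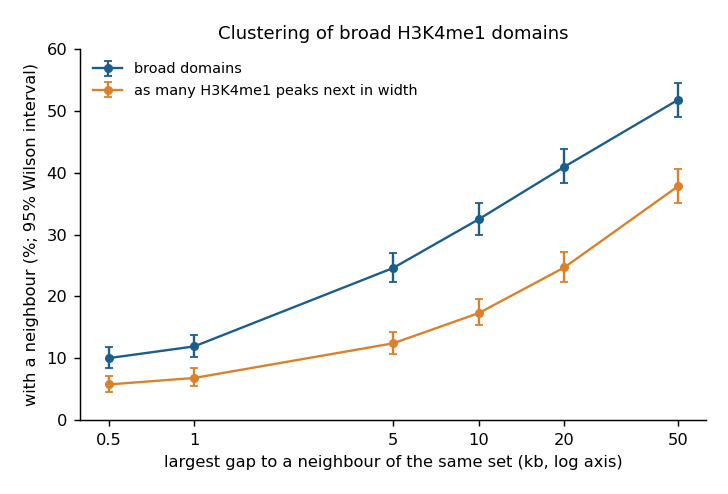
Share of broad H3K4me1 domains (n = 1237) and of the next 1237 H3K4me1 peaks in width that had a neighbour of their own set within a gap given on the log x axis in kb; bars are 95% Wilson intervals. At 10 kb the shares were 32.5% and 17.3%, and at 50 kb they were 51.8% and 37.8%.

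Domains within 10 kb of each other formed 169 chains of 2 or more, and 40 of these chains held 3 or more. The chain with the most domains lay at chr14:54787101-54857870, where 7 broad domains filled 48.8 kb of 70.8 kb. Counted within the domains of a chain, it held 70 total Pol II, 26 Ser5P and 9 Ser2P peaks, 9 of TFIIB and 8 of TBP, but 1 CBP peak and no ETS1 peak. The next, at chr1:167720481-167784620, had 6 domains, 18 total Pol II peaks and 3 FAIRE peaks. Of the 7 chains with 5 domains, the 3 of largest summed width are given. The one at chr2:18835941-18891630 had broad domains over 80.4% of its 55.7 kb and was nearly bare of transcription machinery, with 1 total Pol II peak, 1 TBP peak, no TFIIB peak, 2 ETS1 peaks, 1 CBP peak and no FAIRE peak. At chr2:152612491-152653550, 5 domains held 6 CBP peaks and 5 TFIIE peaks beside 6 total Pol II peaks. The chain at chr8:114088341-114125180 was the most compact of these 5, with 94.0% of 36.8 kb in broad domains, and it held 2 CBP and 8 total Pol II peaks. These 5 chains thus ranged from 70 total Pol II peaks to 1.

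Some domains were separated by no more than a break in the mark. There were 79 gaps of at most 1000 bp between 2 broad domains, with a median of 100 bp. An H3K4me3 peak overlapped 36.7% of these gaps, total Pol II 29.1%, TBP 21.5%, CBP 19.0%, Ser5P 19.0% and TFIIB 17.7%. The gaps ranged from 10 to 1000 bp. No comparison set of gaps was taken, so whether these shares are higher than elsewhere was not tested.

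Per kb of H3K4me1, 13 of the 15 lists had more peak centres in broad domains than in H3K4me1 peaks under 4000 bp, by ratios whose counting intervals lay above 1. The 2 exceptions were Taf1 and H3K4me3. A peak was counted by its centre and divided by length, so a longer domain does not gain centres per kb by length alone. The ratio can still depend on width, because densities changed with distance from the edge and short peaks lie wholly near an edge. How much of the ratios this accounts for was not tested. The ratios compare these lists, not animals.

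CBP had 515 of its 6372 peaks in broad domains. Its density was 0.0729 per kb there, 0.0261 in peaks under 4000 bp and 0.0503 in mid-width peaks. The ratio was 2.79 (2.52 to 3.08) against all peaks under 4000 bp and 1.45 (1.29 to 1.62) against the nearer set. ETS1 had 17.2% of its 2359 peaks in broad domains (406 peaks; 15.7 to 18.8), the highest share of the 15 lists. Its density was 0.0574 per kb against 0.0222, a ratio of 2.58 (2.31 to 2.89), but only 1.18 (1.04 to 1.33) against mid-width peaks. For open chromatin, FAIRE stood at 0.0886 per kb against 0.0476, with ratios of 1.86 (1.70 to 2.03) and 1.20 (1.08 to 1.32).

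Against all peaks under 4000 bp the general factors with ratios above 1 fell into 3 levels. TFIIF, the least numerous list with 1262 peaks, had the highest ratio of all 15, at 3.31 (2.60 to 4.18), from 99 centres in broad domains and 264 in the shorter peaks. TFIIB and TFIIE followed with 2.20 (2.06 to 2.36) and 2.12 (1.96 to 2.28), at 0.148 and 0.125 centres per kb. TBP was at 0.130 per kb with a ratio of 1.77 (1.65 to 1.90), TFIIH at 1.53 (1.33 to 1.75) and TFIIA at 1.43 (1.18 to 1.73). The TFIIA interval included 1 when lists were cut to the 50% of peaks with the highest area, at 1.37 (0.998 to 1.84), and away from H3K4me3, at 1.42 (0.796 to 2.35). Against mid-width peaks the ratios were 2.15 for TFIIF (1.61 to 2.89), 1.38 for TFIIE (1.27 to 1.51) and 1.34 for TFIIA (1.06 to 1.69). They were 1.33 for TFIIB (1.23 to 1.44), 1.23 for TFIIH (1.04 to 1.44) and 1.18 for TBP (1.09 to 1.28). TFIIA thus stood beside TFIIB there, and the lower levels were not kept apart. Taf1 went the other way. Of its 13518 peaks, 74 lay in broad domains, and its density of 0.0105 per kb was 0.701 times that in shorter peaks (0.546 to 0.889) and 0.756 times that in mid-width peaks (0.571 to 0.992). TBP and Taf1 belong to the same complex but were thus on opposite sides of 1. Among H3K4me1 peaks with no H3K4me3 within 1000 bp the Taf1 ratio was 0.929 (0.488 to 1.61), with an interval that included 1. The Taf1, CBP and TFIIB lists came from 1 replicate each, whereas TBP came from merged replicates.

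Total Pol II was the most frequent factor, with 1339 centres in broad domains. That was 0.189 per kb against 0.0915, a ratio of 2.07 (1.95 to 2.20), and 1.58 (1.47 to 1.70) against mid-width peaks. Ser5P, the initiating form, had a ratio of 1.87 (1.71 to 2.03). Ser2P, the elongating form, had 3.02 (2.43 to 3.71) from 122 centres, and its ratio against the nearer set, 2.22 (1.70 to 2.90), was the highest of the 15 lists there. H3K36me3 covered 7.11% of the length of broad domains and 3.70% of that of shorter H3K4me1 peaks. By centres its ratio was 2.01 (1.75 to 2.30). Its direction turned under other settings, at 0.794 (0.716 to 0.879) when any overlap of 1 bp counted, and at 0.829 (0.555 to 1.19) among H3K4me1 peaks with no H3K4me3 within 1000 bp. H3K4me3 had 0.620 times the centres per kb in broad domains (0.587 to 0.654), but 0.966 times (0.906 to 1.03) against mid-width peaks, where the interval included 1. The share of H3K4me1 length inside H3K4me3 peaks was 24.8% in broad domains and 24.4% in shorter peaks.

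**Figure D2:**
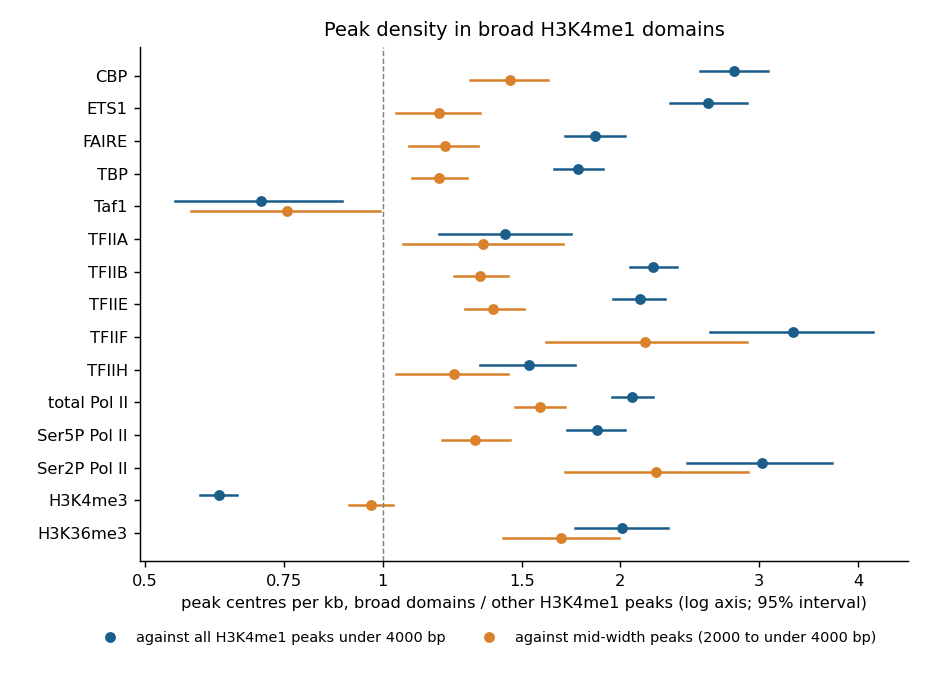
Ratio of peak centres per kb of H3K4me1 in broad domains to that in all H3K4me1 peaks under 4000 bp (blue) or in mid-width peaks of 2000 bp to the threshold (orange), on a log x axis, for the 15 lists; lines are exact 95% intervals for counting error. CBP, TFIIF and Ser2P lie farthest right against all shorter peaks, from 2.79 to 3.31, Taf1 lies left of 1 in both comparisons, and the orange points lie nearer to 1 than the blue points for all 15 lists.

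Height of the H3K4me1 signal moved with these ratios. Within the upper 25% of H3K4me1 peaks by area per bp, a restriction added after seeing the data that held 1207 broad and 17445 shorter peaks, the ratios were 1.67 for CBP, 1.36 for ETS1, 1.25 for FAIRE, 1.22 for TBP and 1.49 for total Pol II. These 5 intervals lay above 1. TFIIA at 1.19 (0.961 to 1.46) and TFIIH at 1.13 (0.975 to 1.31) had intervals that included 1, whereas H3K36me3 was higher than without the restriction, at 2.57 (2.18 to 3.03).

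The densities did not all grow in the same way with width. CBP rose through all 8 width classes, from 0.0134 per kb in peaks under 500 bp to 0.0503 in mid-width peaks, 0.0655 at 4000 to 5000 bp and 0.0857 in domains of 8000 bp or more. ETS1 rose from 0.00453 to 0.0488 per kb below the threshold and did not rise among the 4 broad classes, at 0.0609, 0.0577, 0.0556 and 0.0520 from the narrowest to the widest. CBP and ETS1 were thus close in mid-width peaks and apart in the widest domains. FAIRE stood between 0.0805 and 0.0972 in the broad classes without an order.

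Polymerase densities grew within the broad range. Total Pol II went from 0.140 per kb at 4000 to 5000 bp through 0.163 and 0.222 to 0.287 in domains of 8000 bp or more. Single domains on chromosomes 9, 12 and 14 held 34, 28 and 19 of the 331 centres in that last class. Its density without them was not computed. Ser2P stayed at 0.00875 and 0.00929 per kb up to 6000 bp and stood at 0.0286 and 0.0294 above, though the last class rested on 34 centres. In these upper classes a Ser2P peak was found in only 6.56% and 10.7% of the domains. TFIIB rose from 0.135 to 0.168 and TFIIE from 0.113 to 0.151 per kb between the first and the last broad class. Taf1 had between 8 and 25 centres in each broad class, too few to order them.

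**Figure D3:**
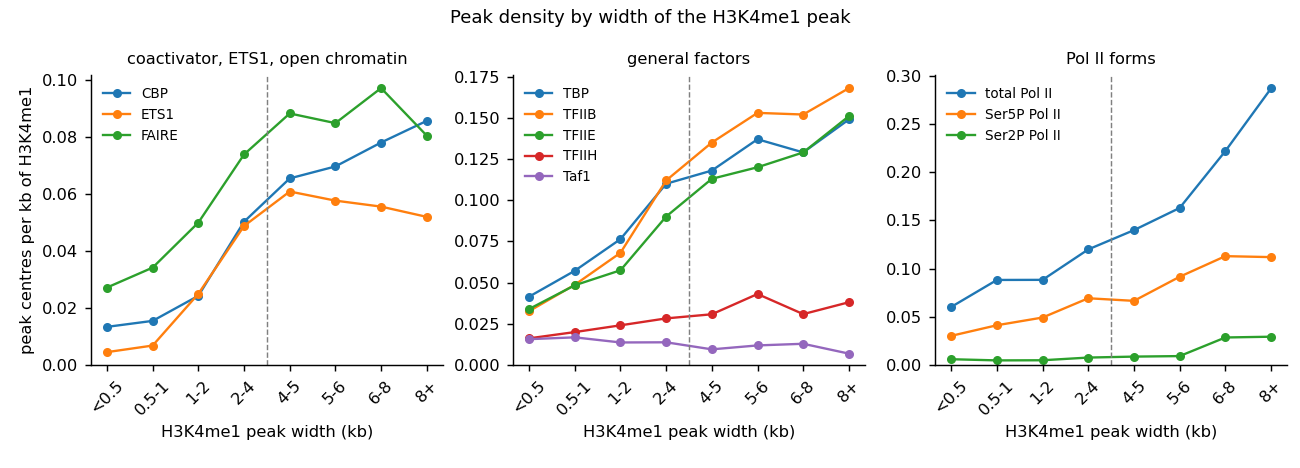
Peak centres per kb of H3K4me1 in 8 classes of H3K4me1 peak width; the dashed line marks the 4 kb threshold, and y axes differ between panels. ETS1 does not rise among the broad classes, at 0.0609 to 0.0520 per kb, while total Pol II goes on rising to 0.287 per kb in domains of 8 kb or more. In that class single domains hold 34, 28 and 19 of the 331 total Pol II centres.

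Counted by domain, TFIIB was the most widespread factor, with a peak in 621 broad domains (50.2%, 47.4 to 53.0). TBP was in 46.1%, total Pol II in 45.6%, TFIIE in 44.9%, FAIRE in 40.0%, CBP in 32.3%, ETS1 in 28.9% and Ser5P in 27.4%. TFIIH was in 15.7%, TFIIA in 9.46%, TFIIF in 7.11%, Taf1 in 5.25% and Ser2P in 4.37%. In peaks under 4000 bp the shares were 4.83% for TFIIB and 2.02% for CBP, but those peaks have a median width of 630 bp and are hit less often by length alone. Most domains with CBP had 1 CBP peak (308 of 399), and 22 had 3 or more. ETS1 was single in 316 of 358 domains. Total Pol II was more often repeated, with 134 of 564 domains holding 3 or more peaks.

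Of the 13 factor and FAIRE lists, none had a peak in 239 broad domains (19.3%, 17.2 to 21.6), while 8 or more lists had one in 154 (12.4%, 10.7 to 14.4). For mid-width peaks the share without any was 47.2%. These shares were not adjusted for width, and a wider peak is less often empty by length alone. The median widths were 5100 bp for broad domains and 2530 bp for mid-width peaks. The 239 domains without a peak had a median width of 4650 bp, against 5250 bp for the rest, and ran up to 8120 bp. An H3K4me3 peak lay within 1000 bp of 54.4% of them (48.1 to 60.6) and of 80.3% of the rest (77.7 to 82.6). Their H3K4me1 was lower, with a median area per bp of 148 against 163. Of the domains with 8 or more lists, 94.8% (90.1 to 97.3) had H3K4me3 within 1000 bp.

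CBP, ETS1 and FAIRE went together. ETS1 had a peak in 45.6% of the domains with CBP (40.8 to 50.5) and in 21.0% of those without (18.4 to 23.9). FAIRE had a peak in 65.9% of domains with CBP (61.1 to 70.4) and in 27.7% of those without (24.8 to 30.8). All 3 were in 141 domains (11.4%, 9.75 to 13.3), against 2.76% of the mid-width peaks. Total Pol II and TBP were more tightly joined. Total Pol II had a peak in 78.8% of domains with TBP (75.2 to 81.9) and in 17.2% of those without (14.6 to 20.3). TFIIB had a peak in 77.9% of domains with CBP and in 37.0% of those without. The pairings were not particular to broad domains. In mid-width peaks ETS1 was in 33.3% of those with CBP and 9.60% of those without, and FAIRE in 49.7% and 13.5%. Total Pol II was in 63.1% of mid-width peaks with TBP and in 9.57% of those without. These shares were not adjusted for domain width, and a wide domain is more likely to hold a peak of any list.

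Most broad domains overlapped a peak of the start-site mark. An H3K4me3 peak overlapped 899 of them (72.7%, 70.1 to 75.1), against 52.5% (51.2 to 53.8) of mid-width peaks and 35.0% of all peaks under 4000 bp. Such shares grow with width, and per kb H3K4me3 was not more frequent, at 0.197 centres in broad domains, 0.204 in mid-width peaks and 0.318 in all shorter peaks. The share of broad domains holding an H3K4me3 centre was 69.3% with the whole list and 37.3% with its upper 50% by area. H3K4me3 peaks in broad domains had a median percentile of 38.4 by area, against 52.0 for those in mid-width peaks and 39.9 for those outside H3K4me1. In the 500 bp beyond the edges, H3K4me3 lay outside both edges of 49 domains, outside 1 edge of 418 and outside neither edge of 770. No H3K4me3 peak lay within 1000 bp of 306 domains (24.7%, 22.4 to 27.2).

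The 306 domains away from H3K4me3 held 84 CBP, 62 ETS1, 97 FAIRE, 108 TFIIB and 119 total Pol II centres. Compared with the 40760 shorter H3K4me1 peaks that also lacked H3K4me3, the density was 2.80 times as high for CBP (2.20 to 3.52), 2.99 for total Pol II (2.44 to 3.63) and 2.92 for TFIIB (2.37 to 3.58). Against the 2313 such mid-width peaks, the ratios were 1.39 for CBP (1.07 to 1.80), 1.79 for total Pol II (1.42 to 2.23), 2.58 for Ser2P (1.31 to 4.98) and 1.31 for TFIIB (1.04 to 1.64). The intervals of the other lists in this nearer comparison included 1, among them FAIRE at 0.928 (0.735 to 1.16), TBP at 0.939 (0.714 to 1.22) and ETS1 at 1.17 (0.866 to 1.56). Ser5P had a peak in 6.54% of the domains away from H3K4me3 (4.27 to 9.88) and in 34.3% of those near it (31.3 to 37.4). CBP differed less, with 23.9% (19.4 to 28.9) and 35.0% (32.0 to 38.1).

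Ser2P peaks lay mostly in domains that also carried H3K36me3. This mark overlapped 259 broad domains (20.9%, 18.8 to 23.3), against 10.7% (9.89 to 11.5) of mid-width peaks. Such shares grow with width and were not adjusted for it. Per kb, H3K36me3 had 0.0372 centres in broad domains and 0.0221 in mid-width peaks. These 259 held 105 of the 122 Ser2P centres in broad domains and 589 of the 1339 total Pol II centres. In 61 domains at least 50% of the length lay in H3K36me3, and there total Pol II reached 0.780 and Ser2P 0.194 centres per kb, against 0.138 and 0.00313 in the 978 domains without H3K36me3. CBP and ETS1 did not share this, with 0.0530 and 0.0475 centres per kb in the domains with H3K36me3 and 0.0789 and 0.0604 in those without. When all H3K4me1 peaks overlapping H3K36me3 were left out, the Ser2P ratio of broad to shorter peaks was 1.12 (0.638 to 1.85) and the total Pol II ratio 1.63 (1.50 to 1.76), while that of CBP was 3.00 (2.69 to 3.34).

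Clustered and single domains differed along the same line. The 402 domains with a broad neighbour within 10 kb had 0.249 total Pol II, 0.0289 Ser2P and 0.0537 H3K36me3 centres per kb. The 835 without had 0.158, 0.0112 and 0.0286. ETS1 was lower in the clustered domains, at 0.0446 against 0.0641 per kb, and CBP was close, at 0.0693 against 0.0747. TFIIB was nearly equal, at 0.149 and 0.148 per kb. The clustered domains were somewhat wider, with a median of 5425 bp against 4960 bp.

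Factor peaks were not spread evenly along the domains. CBP was densest in the first 250 bp outside the edge, at 0.142 centres per kb, stood at 0.0776 in the first 250 bp inside and at 0.0307 in the next 250 bp, and reached 0.0986 from 1250 to 1500 bp inside. FAIRE took the same course, with 0.172 just outside, 0.0356 at 250 to 500 bp inside and 0.120 at 1750 to 2000 bp inside. TBP had 0.258 just outside and total Pol II 0.263, falling to 0.0776 and 0.115 at 250 to 500 bp inside. H3K4me3 had the opposite profile at the edge, with 0.0843 centres per kb just outside and 0.202 at 250 to 500 bp inside. Mid-width peaks had lower values just outside, 0.0636 per kb for CBP, and there CBP was denser inside, at 0.112 per kb from 1500 to 1750 bp. Only the wider mid-width peaks extend 1250 bp or more from both edges. Mid-width length was 1016 kb at 1250 to 1500 bp inside, against 2682 kb in the first 250 bp inside. This step also lies nearer the middle in mid-width peaks than in broad domains, so the positions compared are unlike. From 1250 to 1500 bp inside, mid-width peaks were denser than broad domains for ETS1 (0.0974 against 0.0550) and FAIRE (0.119 against 0.0922). The same was true of TBP (0.177 against 0.124) and TFIIB (0.176 against 0.146). CBP was nearly equal there (0.0974 against 0.0986), and total Pol II was at 0.154 against 0.167. TFIIF, Ser2P and H3K36me3 had lower values in mid-width peaks, but from few centres. These were 9, 8 and 19 in mid-width peaks and 9, 11 and 13 in broad domains. No intervals were computed for these steps. The ratios against mid-width peaks pool all distances from the edge. Because other H3K4me1 peaks started a median of 80 bp away from broad domains, the maximum outside their edge includes the breaks between adjacent H3K4me1 peaks.

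**Figure D4:**
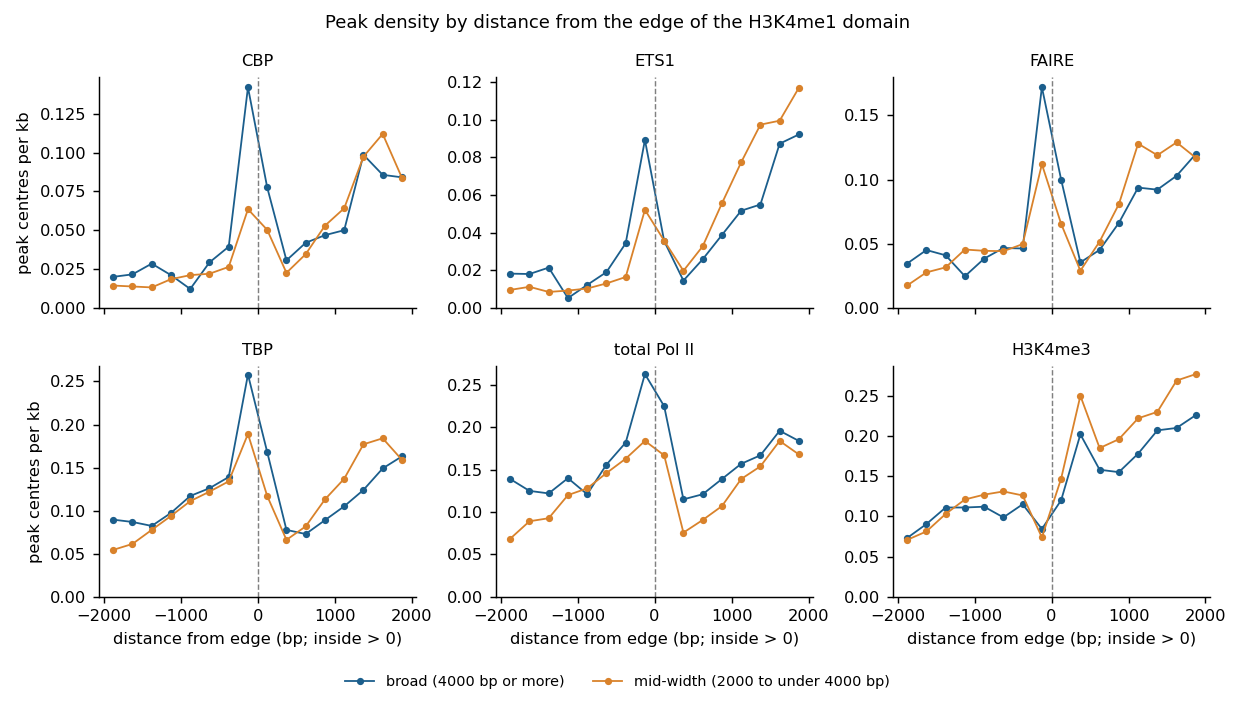
Peak centres per kb in steps of 250 bp from 2000 bp outside (negative) to 2000 bp inside the edge of broad domains (blue) and of mid-width H3K4me1 peaks (orange), for 6 lists; y axes differ between panels. In broad domains CBP, FAIRE, TBP and total Pol II are highest in the step just outside the edge and lower at 250 to 500 bp inside, H3K4me3 is low just outside, and mid-width CBP and ETS1 are highest inside.

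Within the domains, ETS1 was the most central list. Of its centres, 69.5% (64.8 to 73.7) lay in the inner 50% of the domain, followed by TFIIF at 64.6%, TFIIB at 61.8% (58.8 to 64.7), CBP at 61.2% (56.9 to 65.3) and FAIRE at 60.7%. Ser5P at 49.7% (45.8 to 53.5) and Ser2P at 47.5% (38.9 to 56.3) were close to the 50% of an even spread. H3K36me3 centres lay toward the ends, with 42.6% (36.8 to 48.6) in the inner part. Mid-width peaks had similar shares, at 70.9% for ETS1, 67.4% for FAIRE, 62.9% for CBP, 59.1% for TFIIB and 40.5% for H3K36me3. TFIIF was at 46.2% in mid-width peaks (36.5 to 56.3, 93 centres). Its interval in broad domains, 54.8 to 73.4 from 99 centres, overlapped that one.

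CBP peaks in broad domains were high in their own list. Their median percentile by the authors' area was 70.6, and 25.4% of them (21.9 to 29.4) were in the upper 10% of the list. The median was 65.0 for CBP peaks in mid-width peaks, 60.8 in all shorter H3K4me1 peaks and 44.6 outside H3K4me1. ETS1 peaks in broad domains had a median percentile of 61.7, against 55.2 in mid-width peaks, 49.0 in all shorter peaks and 46.4 outside H3K4me1. Total Pol II (51.4), FAIRE (48.2) and TBP (53.6) were near the middle of their lists. TFIIH peaks were low, at 31.2 against 53.1 outside H3K4me1, and TFIIF (35.8), H3K4me3 (38.4), TFIIA (38.6) and Ser5P (39.8) were also below the middle. For TFIIH, TFIIF and Ser5P this held in mid-width peaks too, at 32.6, 37.3 and 41.7. H3K4me3 peaks outside H3K4me1 had a similar median, at 39.9. Of the H3K4me3 peaks in broad domains, 14.9% (13.1 to 16.9) were in the upper 10% of their list.

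The 10 widest domains all had H3K4me3 within 1000 bp, 8 of them had an ETS1 peak, 7 had total Pol II, 6 overlapped H3K36me3 and 5 had CBP. The widest, chr1:140039841-140068750, spanned 28910 bp with 22.0% of its length in H3K4me3, and held 2 CBP, 1 ETS1, 2 FAIRE, 3 TFIIB and 4 total Pol II peaks. Its CBP, ETS1 and TFIIB peaks lay together at a single place, and it held no TBP, Ser5P or Ser2P peak. The next, chr1:43511511-43532330, spanned 20820 bp and had 4 TBP, 2 ETS1 and 2 total Pol II peaks, and no CBP or FAIRE peak. At chr9:32513911-32533200 a domain of 19290 bp held 34 total Pol II peaks, the most of any, with 6 Ser2P peaks and 59.0% of its length in H3K36me3. The domain at chr11:22741991-22758100, of 16110 bp, had 3 ETS1 peaks and no Pol II peak of any form. At chr2:18835941-18851210 a domain of 15270 bp, part of the sparse chain on chromosome 2, held 1 ETS1 peak and no other factor.

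Wide domains with many polymerase peaks included chr12:109156331-109171190 (14860 bp), with 28 total Pol II and 4 Ser2P peaks, and chr14:54787101-54801850 (14750 bp), with 19 total Pol II peaks and 99.3% of its length in H3K4me3. At chr2:18871531-18886190 (14660 bp) there was 1 peak each of CBP, ETS1 and TFIIE. At chr12:108374651-108388960 (14310 bp) there were 2 CBP, 2 ETS1 and 5 total Pol II peaks. The last of the 10, chr1:93078431-93092590 (14160 bp), had 3 ETS1, 5 TFIIB and 4 total Pol II peaks and no CBP peak. Next after those on chromosomes 9 and 12 by number of total Pol II peaks, chr1:139814671-139822140, was only 7470 bp wide. It held 24 total Pol II and 7 Ser2P peaks, lay to 98.0% in H3K36me3 and had no H3K4me3 and no peak of any other factor.

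Peaks from 13 of the 15 lists met in a pair of domains. At chr6:41497401-41504510 (7110 bp) all but Taf1 and TFIIA were present, with 9 total Pol II, 5 Ser5P, 4 Ser2P, 4 TBP, 2 TFIIF and 2 CBP peaks, and 83.0% of the domain lay in H3K4me3. At chr2:35357801-35363660 (5860 bp) all but Ser2P and H3K36me3 were present, each with 1 or 2 peaks. Domains with 12 lists lay at chr3:94186021-94193530, with 3 CBP and 3 FAIRE peaks, at chr5:140684201-140691410, with 2 CBP and 3 FAIRE peaks, and at chr2:31917851-31924530, with 5 TBP and 12 total Pol II peaks.

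The most CBP peaks in 1 domain were 4. At chr8:125223101-125233350 (10250 bp) they stood beside 1 ETS1, 1 FAIRE and 2 TFIIB peaks, with no Pol II peak of any form. At chr12:56563831-56571460 (7630 bp) there were 2 FAIRE peaks and 1 total Pol II peak beside the 4 of CBP. At chr5:137099141-137104340 (5200 bp) there were 3 TBP, 3 TFIIE and 4 total Pol II peaks and neither ETS1 nor FAIRE. All 3 domains had H3K4me3 over 18.2% to 27.0% of their length and none had H3K36me3.

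**Figure D5:**
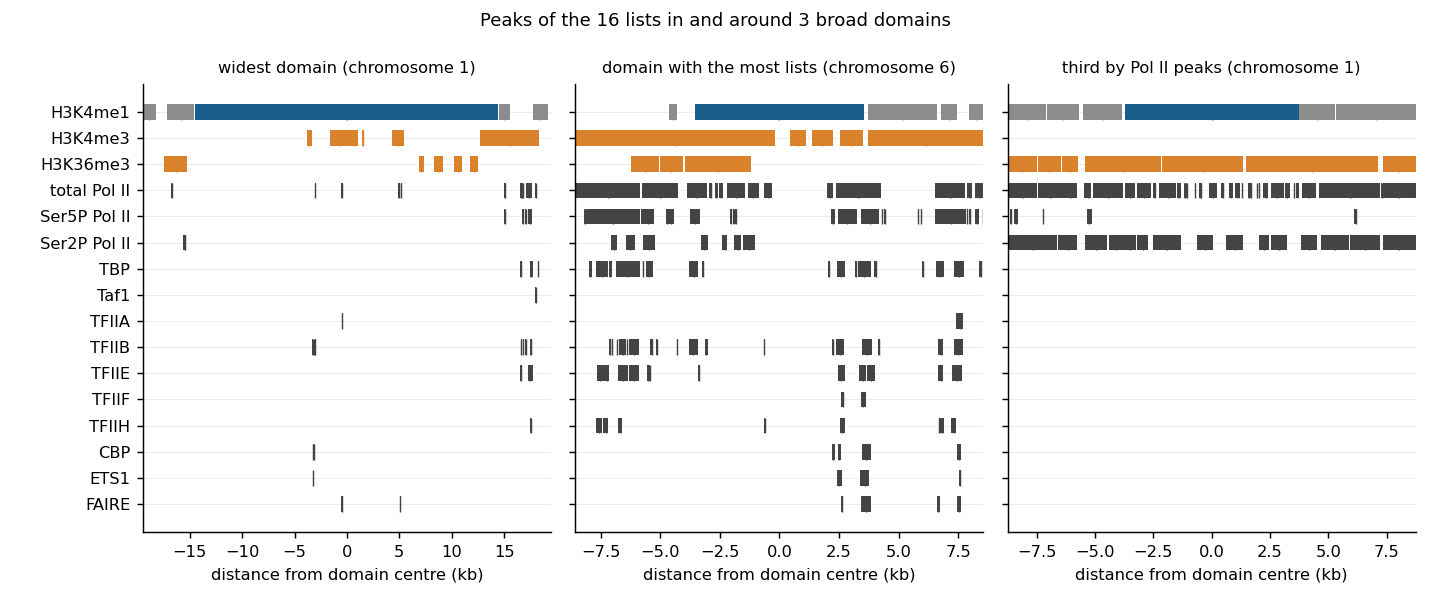
Peaks of the 16 lists around 3 broad domains, drawn to scale by distance from the domain centre in kb, with a minimum line width for narrow peaks; blue is the broad domain, grey other H3K4me1 peaks, orange H3K4me3 and H3K36me3, black the other lists. The widest domain (28910 bp) is mostly bare of factor peaks, the domain with 13 lists (7110 bp) has CBP, ETS1 and FAIRE near its right end and general factors near both ends, and the domain ranked 3 by total Pol II peaks (7470 bp) carries 24 total Pol II and 7 Ser2P peaks in H3K36me3.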

How the data were processed

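Peaks of 15 ChIP-seq targets and of FAIRE were used, each as deposited with chromosome, start, end and area. The deposited file names describe the area as the signal of the authors' track summed over the peak. It was used only to rank or describe peaks within a list. Per the submitters' processing notes the build is mm9. Per the track names, all tracks but that of FAIRE were freed of artefacts, scaled and background-subtracted. Per the file and track names 13 lists came from merged replicates, and those of CBP, Taf1 and TFIIB from 1 replicate. Per the labels' protocols, ETS1 used sheep anti-rabbit beads and the other targets Protein-G beads. Aligner, peak caller, threshold and read numbers were not given in the sources used here, so the depth behind each list is unknown. Peak ends fall on bins of 10 bp.

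Width was the end minus the start plus 1. A peak was inside a domain by its centre, and overlap meant at least 1 bp. Densities are centres per kb. Ratios carry exact binomial 95% intervals on the split of centres, and shares carry Wilson 95% intervals. The domains, lists and tests were chosen with earlier results of these data known. Regions were named by rule, as the 10 widest domains, the 5 with the most lists, the 5 chains with the most domains (ties by summed domain width), and the 3 domains each with the most CBP and total Pol II centres. Alternatives covered the width minimum, joined peaks, the counting rule, the comparison set, the upper 50% of each list, the marks and the chromosomes. The samples of rabbit immunoglobulin, input, poly(A) RNA and total RNA were not analysed here. An mm9 genome and annotation were not used here, so no gene or sequence is given and the planned check of cell type markers was not run. The interval code was tested on simulated data, where 0 results differed from a direct count. Python 3.11.15, numpy 2.4.6, scipy 1.17.1 and matplotlib 3.10.9 were used.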

Additional observations from a re-analysis of the deposited data

How the results depend on the processing

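The number of broad domains, 1237, was 2655 with a width minimum of 3000 bp, 646 with 5000 bp and 3214 when H3K4me1 peaks were first joined across gaps of at most 500 bp. Their share of the H3K4me1 length was then 17.2%, 6.40% and 30.6%, and the share with a broad neighbour within 10 kb was 42.9%, 25.9% and 37.9%. With a neighbour gap of 5 or 20 kb it was 24.6% or 41.0%. The number of lists with an interval above 1 ranged from 11 to 13 over the 12 alternatives that have one, and by covered length, which has none, 14 ratios were above 1. Of these 13 alternatives, 3 were chosen after seeing the data (other lists joined across 500 bp, the upper 25% of H3K4me1 by area per bp, and leaving out the domain with the most centres). Of 193 ratios under these alternatives, 120 moved by less than their interval, 70 moved by more and 3 changed side. H3K36me3 was at 0.794 when any overlap of 1 bp counted, which by construction favours short H3K4me1 peaks, and at 0.829 with no H3K4me3 within 1000 bp. H3K4me3 was at 1.02 by covered length, where long peaks count more. No paired analysis was possible because each target had 1 list. Peak threshold and depth are unknown, so a missing peak is no evidence of absence.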
